A study of Homo sapiens
Mus musculus and Homo sapiens with 21 samples.

Results

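Genes that mark neurons of the cerebellum, 10 in all, were followed in the mouse RNA of brains with and without metastases of a human lung cancer line. They are *Pcp2*, *Car8*, *Calb1*, *Pvalb*, *Cbln1*, *Cbln3*, *Gabra6*, *Neurod1*, *Zic1* and *En2*. They were chosen by name as known cerebellar genes, with earlier results of these data known, and matched by symbol. The p-values of single genes below take no account of that choice. All 10 were found among the 33043 mouse genes of the table. H2030-BrM3 is a brain-seeking derivative of the lung adenocarcinoma line H2030. The host groups were hindbrain with metastases (HBMet, 3 libraries), tumour-free hindbrain (HB, 4 libraries), forebrain with metastases (FBMet, 3 libraries) and tumour-free forebrain (FB, 4 libraries). All host tissue came from athymic nu/nu mice, which lack T cells. For the xenografts, mice aged 5 to 6 weeks received H2030-BrM3 cells into the heart, and tumours were macrodissected together with the stroma around them. The labels name the cell line for the tumour-free brains too and do not say whether these came from injected mice, what tissue the hindbrain samples span, or which libraries came from 1 animal, so p-values measure the spread between these libraries only.

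The cerebellar cortex is built from a few well-known neuron classes. Granule cells, small excitatory neurons, send parallel fibres to Purkinje cells, the large inhibitory neurons that carry the only output of the cortex, and interneurons of the molecular layer inhibit the Purkinje cells. Purkinje cells are rich in calcium-buffering and calcium-release proteins. *Pcp2* encodes a modulator of G protein signalling found in Purkinje cells, *Car8* encodes a carbonic anhydrase-related protein that binds the inositol trisphosphate receptor, and *Calb1* encodes the calcium buffer calbindin. *Pvalb* encodes parvalbumin, a calcium buffer of Purkinje cells, cerebellar interneurons and fast-spiking interneurons elsewhere in the brain. *Cbln1* and *Cbln3* encode secreted cerebellins of granule cells. Cbln1 acts at the synapses between parallel fibres and Purkinje cells. *Gabra6* encodes the alpha-6 subunit of the GABA-A receptor, a mark of mature granule cells. *Neurod1*, *Zic1* and *En2* encode transcription factors of granule cells, of their precursors and of the region around the midbrain and hindbrain border, and *Neurod1* and *Zic1* are also used elsewhere in the brain.

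Values are RPKM, reads scaled to transcript length and library depth, rescaled to a sum of 1000000 over the mouse genes of each library, so that levels of different genes can be set side by side per length. Libraries held 52358082 to 86139353 mouse reads in HBMet, 19338017 to 23034782 in HB, 54450435 to 71916502 in FBMet and 17747167 to 20432888 in FB. Human reads made up 5.49 to 7.52% of HBMet, 4.83 to 7.12% of FBMet and at most 0.0315% of tumour-free libraries. The dissections were checked against position genes. Of 24 tested genes of hindbrain position, such as Hox genes, 23 were higher and 1 was lower in HB than in FB. Of 22 forebrain genes 1 was higher and 20 were lower (limma, adjusted p under 0.05). Among all 15777 tested genes, 5133 were higher and 3194 lower in HB than in FB. Forebrain genes were still present in hindbrain tissue, with summed levels of 384 to 399 in HBMet and 400 to 617 in HB, against 2333 to 3176 in FB. HB replicate 1 had the highest HB value of all 10 genes, and results that change without it are given both ways. These are bulk samples, in which fewer cells of a type and less RNA per cell cannot be told apart.

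All 10 genes were higher in hindbrain than in forebrain, both with and without metastases, and no library of one region overlapped the other for any of them, where 27.3% of all tested genes were higher without overlap in HB than in FB and 39% in HBMet than in FBMet. The limma test called all 10 higher in HB than in FB, beside 32.5% of all 15777 tested genes, and all 10 higher in HBMet than in FBMet, beside 30.7% of all genes. These counts are a description, since the genes were chosen as known cerebellar genes. All 10 met the filter on low values, a rescaled RPKM of at least 1 in at least 3 libraries, but *Pcp2*, *Cbln3*, *Gabra6* and *En2* met it only through their hindbrain libraries, which fixed the direction of their regional difference beforehand. *Car8*, *Calb1*, *Pvalb*, *Cbln1*, *Neurod1* and *Zic1* were above 1 in every forebrain library. The genes covered a wide range of contrast between the regions, from *Pcp2*, *Cbln3* and *Gabra6*, which were nearly absent from forebrain, to *Calb1*, whose forebrain level was a sizeable part of that in hindbrain.

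*Pcp2* (ENSMUSG00000004630.18) had 324, 373 and 295 rescaled RPKM in HBMet and 414, 235, 128 and 269 in HB. In forebrain it had 0.419, 0.244 and 0.287 in FBMet and 0.139, 0.145, 0.373 and 0.125 in FB. The forebrain values rest on 6 to 9 reads per library in FBMet and 1 to 3 in FB, so *Pcp2* was close to undetected there, and its FB mean was 0.0748% of its HB mean. On the log2(value + 1) scale, which understates changes of genes this low, *Pcp2* was 7.97 ± 0.28 higher in HBMet than in FBMet and 7.66 ± 0.25 higher in HB than in FB (SE). These differences are given without a p, because only hindbrain libraries carried *Pcp2* past the filter.

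*Car8* (ENSMUSG00000041261.9) had 161, 195 and 161 in HBMet and 236, 105, 93.9 and 144 in HB, against 7.13, 7.33 and 5.93 in FBMet and 4.84 to 5.85 in FB. A low forebrain level was therefore present in every library, backed by 245 to 1324 reads. Its FBMet mean was 3.95% of the HBMet mean and its FB mean 3.67% of the HB mean. *Calb1* (ENSMUSG00000028222.2) had the highest level per length of the 10 genes in each group, with a mean of 802 ± 138 in HBMet, 658 ± 240 in HB, 235 ± 40.3 in FBMet and 292 ± 42.3 in FB (SD; n = 3, 4, 3 and 4). Its FBMet level was 29.3% of that in HBMet and its FB level 44.5% of that in HB, the least regional contrast among the 10 genes. The HB over FB difference of *Calb1* was 1.11 ± 0.20 on the log2 scale (SE, adjusted p = 0.00029, limma).

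*Pvalb* (ENSMUSG00000005716.16) had 528, 553 and 525 in HBMet and 660, 429, 303 and 483 in HB. The 3 HBMet values lay within 1.05 times of one another and inside the range of HB. In forebrain *Pvalb* averaged 44.1 ± 7.68 in FBMet and 67.5 ± 12.5 in FB, which was 8.24% of HBMet and 14.4% of HB.

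Among granule cell genes, *Cbln3* (ENSMUSG00000040380.13) had 241, 319 and 210 in HBMet and 347, 169, 115 and 197 in HB, against 0.159 to 0.284 in FBMet and 0.213 to 0.593 in FB. *Gabra6* (ENSMUSG00000020428.13) had 145, 216 and 121 in HBMet and 187, 80.7, 79.6 and 117 in HB, against 0.0386 to 0.0601 in FBMet and 0.0625 to 0.134 in FB. The forebrain values of *Gabra6* rest on 5 to 6 reads per library in FBMet and 2 to 5 in FB. Their level in FBMet was 0.0904% of HBMet for *Cbln3* and 0.0296% for *Gabra6*.

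*Cbln1* (ENSMUSG00000031654.16) was close to *Cbln3* in hindbrain, with 251, 345 and 202 in HBMet and 346, 168, 125 and 213 in HB. It differed from *Cbln3* in forebrain, where it had 8.77, 4.11 and 5.50 in FBMet and 17.7, 20.7, 20.4 and 22.1 in FB. The forebrain values rest on 351 to 655 reads per library in FBMet and 442 to 618 in FB. The log2 difference between regions was 5.25 ± 0.32 for HBMet over FBMet and 3.24 ± 0.28 for HB over FB (SE).

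Of the transcription factor genes, *En2* (ENSMUSG00000039095.8) had the lowest hindbrain level of the 10 genes, with a mean of 18.9 ± 4.27 in HBMet and 15.8 ± 6.63 in HB, and averaged 0.248 in FBMet and 0.374 in FB. *Neurod1* (ENSMUSG00000034701.9) averaged 58.7 ± 16.0 in HBMet, 45.8 ± 14.8 in HB, 2.99 ± 0.0416 in FBMet and 4.76 ± 0.542 in FB. *Zic1* (ENSMUSG00000032368.14) averaged 161 ± 40.2 in HBMet, 126 ± 37.6 in HB, 25.4 ± 6.02 in FBMet and 24.9 ± 4.09 in FB, so its forebrain levels were 15.8% of HBMet and 19.7% of HB.

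**Figure D1:**
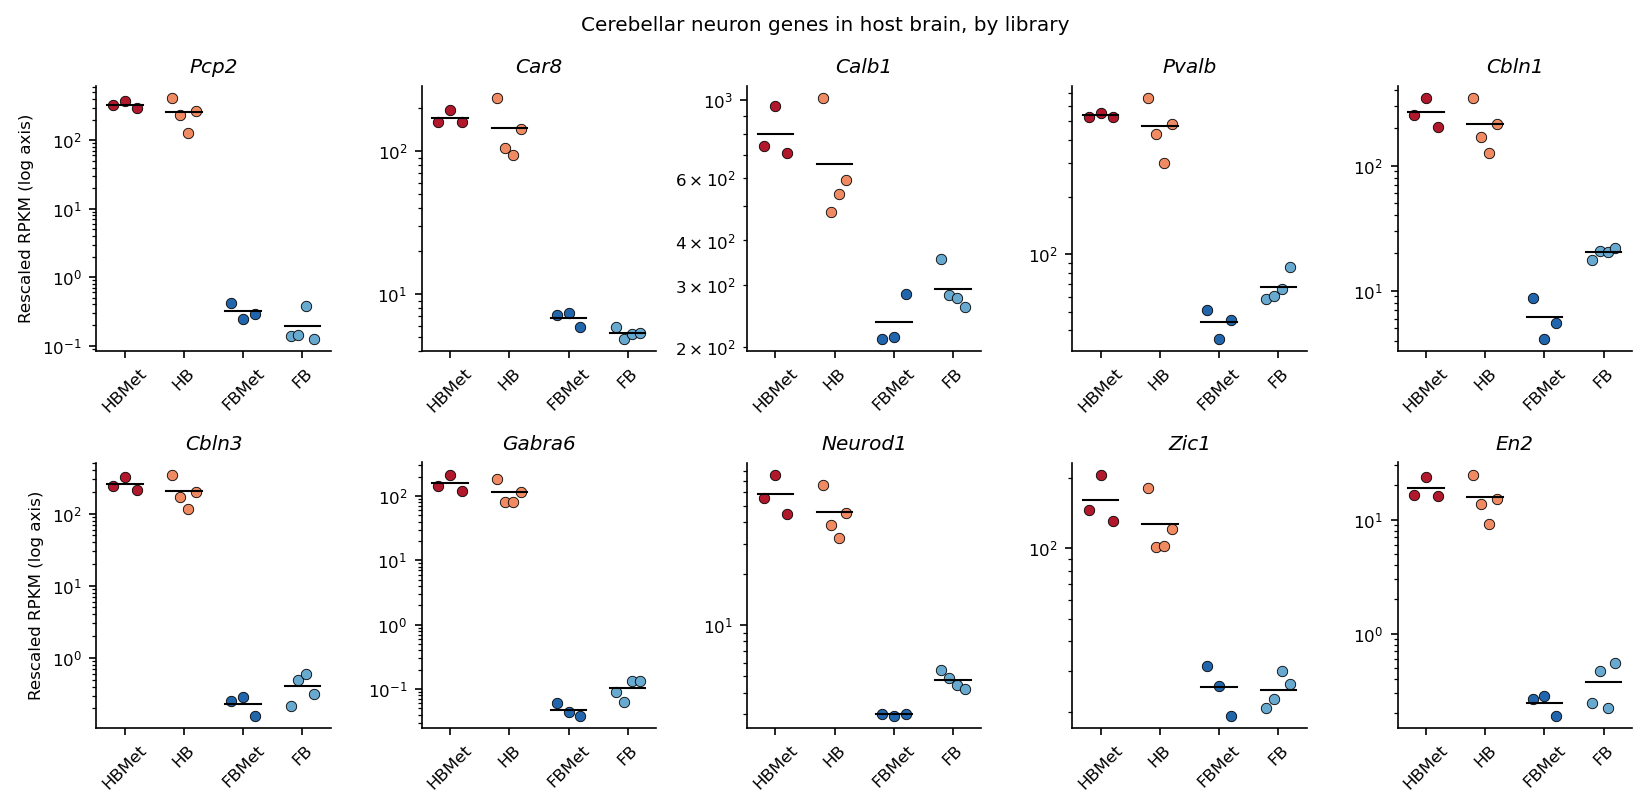
Rescaled RPKM (log axis, a scale of its own for each gene) of the 10 cerebellar neuron genes in each library of HBMet, HB, FBMet and FB. Points are libraries and lines are group means. Every hindbrain library lies above every forebrain library for all 10 genes, and *Cbln1* is lower in the 3 FBMet libraries than in the 4 FB libraries.

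Other genes of the same neuron classes showed a mixed regional pattern. The counts below are read beside the 5133 genes higher and 3194 lower in HB than in FB among all 15777 tested. Of 23 other Purkinje cell genes, 19 were higher and 4 lower in HB than in FB. *Ppp1r17*, a phosphatase inhibitor gene of Purkinje cells, averaged 63.5 in HB and 1.12 in FB, and *Homer3*, a postsynaptic scaffold gene, averaged 212 in HB and 17.6 in FB. Those that were lower included *Foxp2*, *Itpka* and *Pcp4*, which forebrain neurons also express. Of 24 granule cell genes, 14 were higher, led by the atypical cadherin gene *Fat2* (22.7 in HB and 0.0722 in FB), and 2 were lower, *Slc17a7* and *Cbln2*. Of 15 genes of cerebellar interneurons and Golgi cells, 9 were higher and 1 lower. The median log2 difference of HB over FB was 3.39 for the 10 genes, 1.39 for the Purkinje list, 1.02 for the granule list and 1.02 for the interneuron list, against 0.09 over all genes.

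Between hindbrain with and without metastases, no difference passed in any of the 10 genes. All 10 averaged higher in HBMet than in HB, by 0.25 to 0.51 on the log2 scale, but none passed the limma test, where 2.92% of all genes were called higher, and none reached an unadjusted p under 0.05. The values of HBMet and HB overlapped for all 10, where 12.8% of all genes did not overlap. *Gabra6* had the highest estimate, 0.51 with a 95% interval of -0.02 to 1.04 (adjusted p = 0.351), and *Pvalb* the lowest, 0.25 with an interval of -0.20 to 0.69 (adjusted p = 0.631). For *Pcp2* the interval ran from -0.12 to 1.02 and for *Cbln1* from -0.25 to 1.03. In linear terms the intervals of these 4 genes reach up to 2.06-fold (*Gabra6*) and down to 0.839-fold (*Cbln1*).

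These estimates depend on 1 library. HB replicate 1 had the highest HB value of all 10 genes, so leaving it out raises every estimate. Without HB replicate 1, 531 of all 15699 tested genes passed as higher in HBMet than in HB, and 4 of the 10 genes did. They were *Car8* (0.60, adjusted p = 0.0194, limma), *Gabra6* (0.77, 0.0207), *Calb1* (0.56, 0.0411) and *Cbln3* (0.69, 0.0467). Leaving out any other library made no call among the 10. The summed level of 22 forebrain genes was 384 to 399 in HBMet and 400 to 617 in HB. Their part in the values of the 10 genes was not tested.

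**Figure D2:**
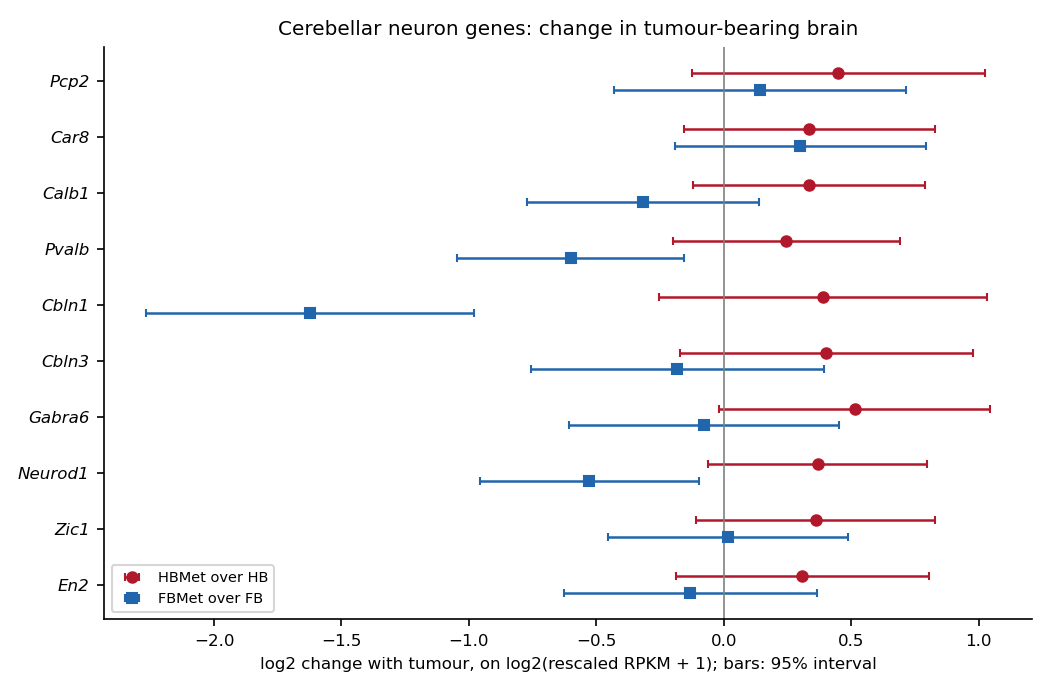
Log2 difference with metastases of each of the 10 genes, HBMet over HB (circles) and FBMet over FB (squares), on log2(rescaled RPKM + 1), with 95% intervals. All 10 hindbrain intervals include 0, and the forebrain estimate of *Cbln1* lies at -1.62.

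Within hindbrain the 10 genes varied together from library to library. Relative to each gene's HB mean, the median over the 10 genes was 1.16 in HBMet replicate 1, 1.53 in HBMet replicate 2 and 1.04 in HBMet replicate 3, and it was 1.58, 0.810, 0.647 and 0.995 in HB replicates 1 to 4. HBMet replicate 2 was the highest HBMet library in 10 of 10 genes. HB replicate 3 was the lowest HB library in 8 of 10 genes and HB replicate 2 in the other 2, *Calb1* and *Zic1*. The ratio of the highest to the lowest HB library was 3.23 for *Pcp2* and 1.79 for *Zic1*, the ends of the range over the 10 genes.

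**Figure D3:**
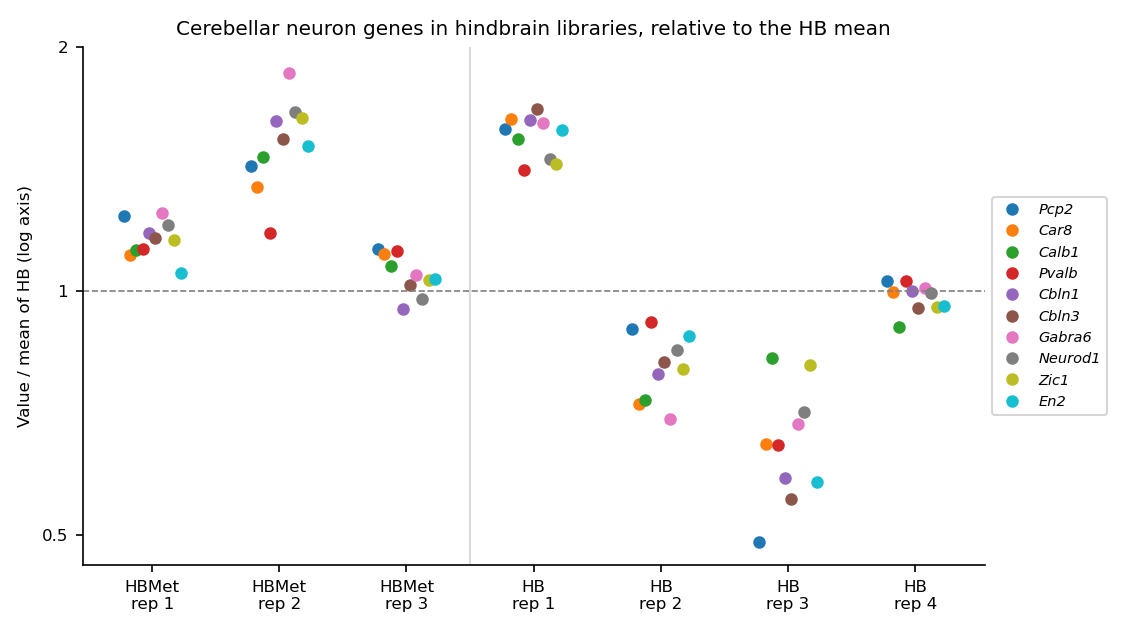
Each gene's rescaled RPKM divided by its mean over the 4 HB libraries (log axis), in the 3 HBMet and 4 HB libraries. Each colour is 1 gene. Within most libraries the 10 genes lie close together, high in HB replicate 1 and HBMet replicate 2 and low in HB replicate 3.

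The balance between genes varied less than their levels in some pairs. The 2 cerebellin genes kept nearly the same ratio in all 7 hindbrain libraries: *Cbln1* over *Cbln3* lay between 0.963 and 1.09. *Pcp2* over *Gabra6*, a Purkinje cell gene over a granule cell gene, ranged from 1.61 in HB replicate 3 to 2.91 in HB replicate 2, and was 2.24, 1.73 and 2.43 in HBMet. *Calb1* over *Pcp2* was 2.28 to 2.57 in HBMet and 2.06 to 4.23 in HB, with HB replicate 3 as the high value. In HB replicate 3 *Pcp2* was at 0.49 times its HB mean and *Calb1* at 0.83 times.

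The summed level of the 10 genes was 2606, 3267 and 2412 in HBMet and 3474, 1823, 1531 and 2197 in HB. The sum over 25 hindbrain position genes, which include Hox, Phox2 and monoamine neuron genes of the brainstem, was 250, 205 and 257 in HBMet and 236, 345, 302 and 261 in HB. The 2 libraries with the highest sums of the 10 genes, HB replicate 1 and HBMet replicate 2, had the lowest 2 sums of position genes, and HB replicates 2 and 3, with the lowest sums of the 10 genes, had the highest. All libraries are scaled to the same total, which ties the sums to each other. The part of how much cerebellum and brainstem each sample held was not tested.

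**Figure D4:**
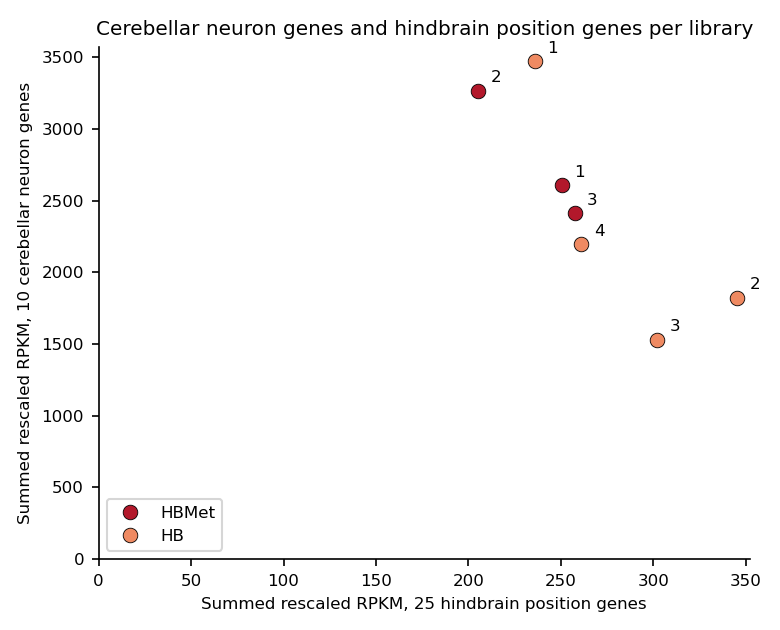
Summed rescaled RPKM of the 10 cerebellar neuron genes (y axis) against that of 25 hindbrain position genes (x axis) in each hindbrain library, numbered by replicate. HB replicate 1 and HBMet replicate 2 lie at the upper left, and HB replicates 2 and 3 at the lower right.

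In forebrain, 2 of the 10 genes were lower with metastases, *Cbln1* and *Pvalb*, and none was higher, where 16% of all genes were lower and 14.4% higher. *Cbln1* was 3.08-fold lower in FBMet than in FB, at 6.12 ± 2.39 in FBMet and 20.2 ± 1.85 in FB (SD, n = 3 and 4), a log2 difference of -1.62 ± 0.30 (SE, adjusted p = 0.0019, limma). All 3 FBMet libraries lay below all 4 FB libraries, and the highest FBMet value, 8.77, was under the lowest FB value, 17.7. The call held in all 26 alternative settings, with adjusted p from 0.00048 to 0.016.

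*Pvalb* had 51.2, 36.0 and 45.1 in FBMet and 58.2, 60.2, 65.9 and 85.5 in FB, without overlap. It was 1.52-fold lower in FBMet (log2 difference -0.60 ± 0.21, SE; adjusted p = 0.0423, limma), a call that was lost in 16 of 26 alternatives, with adjusted p from 0.0129 to 0.273. It was lost without FBMet replicate 2 or 3, without FB replicate 2, 3 or 4, without HB replicate 2 or 4, and without any 1 of the HBMet libraries. With levels scaled to general neuron genes the difference was -0.34.

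*Neurod1* had 3.02, 2.94 and 3.00 in FBMet and 5.46, 4.91, 4.45 and 4.23 in FB. The groups did not overlap, but the log2 difference of -0.53 ± 0.20 missed the threshold (SE, adjusted p = 0.0606, limma; 0.0061 to 0.336 over the alternatives, 6 of which passed). Leaving out libraries, *Neurod1* passed without HB replicate 1 (0.0178), HB replicate 3 (0.0377) or HBMet replicate 2 (0.0418). Counting all 10 genes, 4 did not overlap as lower in FBMet (*Cbln1*, *Pvalb*, *Neurod1* and *Gabra6*) and 1 as higher (*Car8*), where 20.8 and 17.1% of all genes did so. For *Gabra6* this rests on 2 to 6 reads per library, with 0.0601 as the highest FBMet value and 0.0625 as the lowest FB value, so it is not a detectable difference at this depth. *Car8* averaged 6.79 ± 0.758 in FBMet and 5.32 ± 0.421 in FB, a log2 difference of 0.30 with a 95% interval of -0.19 to 0.79 (adjusted p = 0.347, limma).

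For *Calb1* the interval in forebrain ran from -0.77 to 0.14 and for *Zic1* from -0.45 to 0.49. *Pcp2*, *Cbln3*, *Gabra6* and *En2*, all under 1 in every forebrain library, had estimates between -0.18 and 0.14 that the pseudocount of 1 draws toward 0. The median log2 difference over the 10 genes was -0.16, against -0.03 over all genes. General neuron genes were lower in FBMet as well, with 11 of 20 lower and 1 higher and summed levels of 11925 to 14235 in FBMet against 15129 to 15731 in FB. With levels scaled to those genes, *Cbln1* was lower by 1.38 on the log2 scale. Such scaling cannot show a change in only those neurons that express *Cbln1*. The part of the lower general neuron genes in the values of *Cbln1* and *Pvalb* was not tested.

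Other genes of cerebellar neuron classes were called in forebrain in both directions, and their counts are read beside the 16% of all genes that were lower and the 14.4% that were higher. Of 23 Purkinje cell genes 2 were higher in FBMet than in FB and 4 lower. The largest of these was *Lhx1*, a homeobox gene, at 0.624 in FBMet and 2.59 in FB (2.21-fold lower). The pseudocount of 1 shrinks this fold below that of the means, and the *Lhx1* values rest on 23 to 41 reads per library. In contrast *Itpr1*, which encodes the inositol trisphosphate receptor that Car8 binds, was 1.65-fold higher (2176 in FBMet and 1329 in FB). Of 24 granule cell genes 1 was higher and 3 lower, and the calretinin gene *Calb2*, also expressed by neurons of thalamus and midbrain, was 2.77-fold lower (24.0 in FBMet and 66.3 in FB). Of 15 interneuron genes 4 were lower. Among 12 genes of forebrain interneurons, listed because *Pvalb* marks one class of them, 4 were lower, *Nefh*, *Hapln4*, *Cplx1* and *Syt2*, by 1.19- to 1.53-fold.

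The forebrain values of *Cbln1* were set beside those of other cerebellin genes after they had been seen. *Cbln4* averaged 5.63 in FBMet and 11.04 in FB, and *Cbln2* averaged 18.6 in FBMet and 20.2 in FB. Of the 4 cerebellin genes, *Cbln1* and *Cbln4* were lower in FBMet without overlap, as were 20.8% of all genes, while *Cbln2* and *Cbln3* overlapped.

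Several single genes of thalamus and midbrain neurons had lower values in FBMet than in FB. *Slc17a6*, the vesicular glutamate transporter gene of thalamic and brainstem neurons, had 29.9, 15.7 and 19.5 in FBMet and 64.9, 76.9, 72.4 and 92.6 in FB. *Tcf7l2*, a transcription factor gene of thalamus, averaged 5.85 in FBMet and 17.8 in FB, and *Th*, the tyrosine hydroxylase gene of dopamine neurons, 3.46 in FBMet and 12.1 in FB. *Slc17a6*, *Tcf7l2* and *Th* are from a list of 12 genes and were chosen after the values of *Cbln1* had been seen. Of the 12 genes 8 were lower and none higher (limma, adjusted p under 0.05), beside 16% of all genes that were lower. Because of that choice the count is a description. Of 24 tested hindbrain position genes 5 were lower in FBMet and none higher, *Irx2*, *Glra1*, *Gbx2*, *Irx3* and *Irx5*, beside 16% of all genes that were lower. The median log2 difference of that list was -0.01, against -0.03 over all genes. *Gbx2*, though on that list, was not higher in hindbrain here, at 1.21 to 2.02 in HB and 1.87 to 3.81 in FB. *Irx2* had 1.09, 0.343 and 0.269 in FBMet and 3.13, 5.72, 5.84 and 4.55 in FB, and the sum over the list was 2.64 to 5.18 in FBMet and 10.1 to 14.6 in FB. FBMet replicate 1 had the highest value of the 3 FBMet libraries for *Cbln1*, *Slc17a6*, *Calb2*, *Tcf7l2*, *Irx2* and *Lhx1*, but the lowest for *Th*, at 3.00 against 3.26 and 4.12. How much caudal forebrain or midbrain each dissection held, and its part in the *Cbln1* difference, was not tested.

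**Figure D5:**
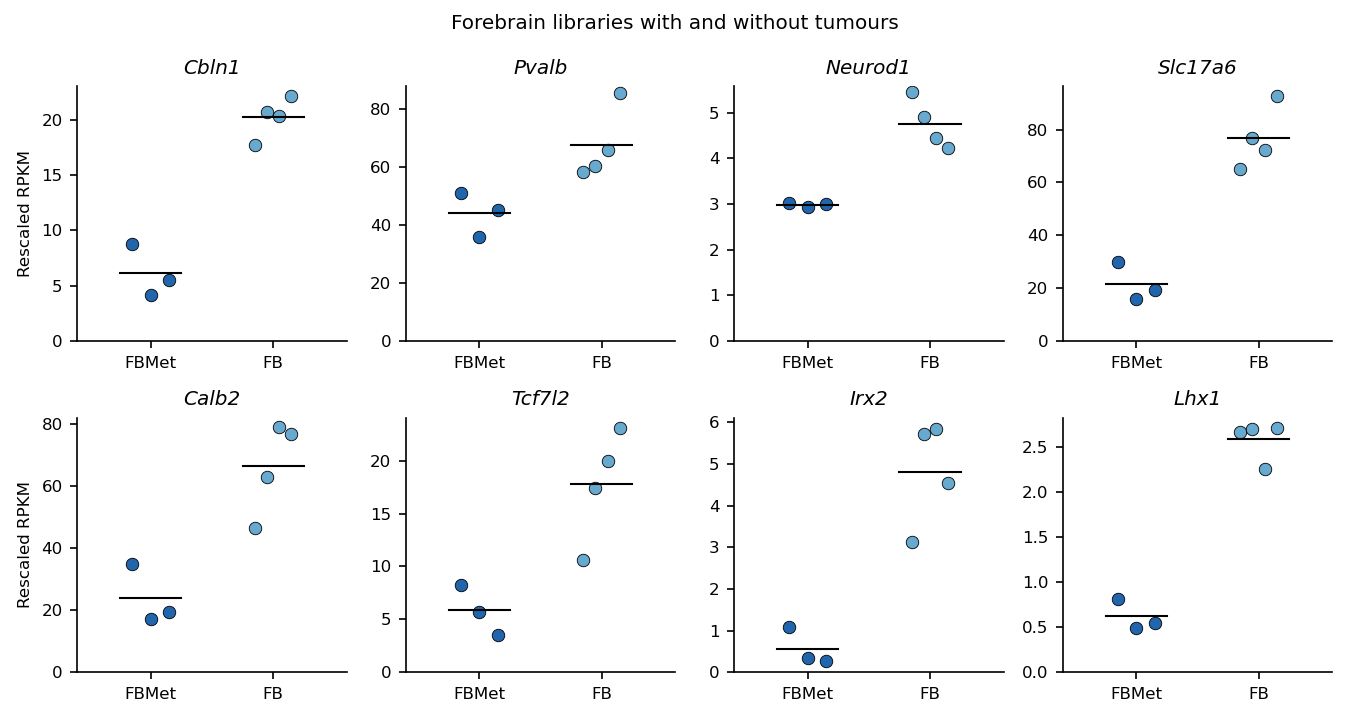
Rescaled RPKM (linear axes from 0) of *Cbln1*, *Pvalb*, *Neurod1*, *Slc17a6*, *Calb2*, *Tcf7l2*, *Irx2* and *Lhx1* in the 3 FBMet and 4 FB libraries. Points are libraries and lines are group means. In each of the 8 genes every FBMet library lies below every FB library, as for 20.8% of all tested genes. The 8 genes were chosen with their values known, so this count is a description.

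Whether the change with metastases differed between the regions was tested as the difference of the HBMet over HB and the FBMet over FB change. An unadjusted p under 0.05 was common over all genes. Among the 10 genes 4 had one, and *Calb1*, at 0.0481 (limma), ranked 3021 of 15777 genes by p. After adjustment none of the 10 genes passed, where 0.456% of all genes did. *Cbln1* came closest, with a difference of 2.01 ± 0.42 on the log2 scale (SE, adjusted p = 0.0555, limma; 0.0065 to 0.197 over the alternatives). It passed with median-of-ratios scaling (0.04999), with quantile normalization (0.0476) and without HB replicate 1 (0.0065). *Neurod1* differed by 0.90 (adjusted p = 0.123, limma), *Pvalb* by 0.85 (0.148) and *Calb1* by 0.65 (0.251). These 3 passed only without HB replicate 1, where 343 of all 15699 genes passed. Among the other genes set beside *Cbln1*, *Lhx1* (1.37, adjusted p = 0.0050, limma), *Slc17a6* (1.63, 0.0223), *Irx2* (1.71, 0.0336) and *Calb2* (1.51, 0.0479) passed this test, and *A2m* of the Bergmann glia list passed in the opposite direction (-1.42, 0.0336).

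Microglia and macrophage genes were higher with metastases in both regions. Of 12 microglia and macrophage genes 11 were higher in HBMet than in HB, beside 2.92% of all genes. In FBMet over FB 12 were higher, beside 14.4% of all genes. The astrocyte filament gene *Gfap* averaged 963 in HBMet and 371 in HB, and 736 in FBMet and 149 in FB. It does not stand for astrocyte genes at large. Of 10 astrocyte genes 1 was higher in HBMet than in HB and 4 in FBMet than in FB, and none was lower. The summed levels of these astrocyte genes overlapped in hindbrain, at 13114 to 15145 in HBMet and 11510 to 15108 in HB. Lists of Purkinje, granule, interneuron and Bergmann glia genes had no call in either direction in HBMet over HB. Calls were few there over all 15777 genes too, with 460 higher and 52 lower.

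Across the 14 host libraries the genes most like *Pcp2* were, by Pearson correlation on the log2(value + 1) scale among 11398 genes, *Arhgef33* (0.999), *Crtam* (0.998), *Cnpy1* (0.998), *Dao* (0.997) and *Trim67* (0.997). Those most like *Gabra6* were *Cnpy1* (0.999), *Arhgef33* (0.998), *Crtam* (0.997), *Dao* (0.997) and *Cdr2l* (0.996). The libraries fall into 2 regions, so these values are descriptions that mainly follow the contrast between hindbrain and forebrain. Counting the other 9 cerebellar genes as well, *Cbln3* ranked 1, *Gabra6* 3 and *Car8* 8 in likeness to *Pcp2*, while *Cbln1* ranked 522 and *Calb1* 875. *Dao*, the D-amino acid oxidase gene, averaged 30.6 in HBMet, 27.1 in HB, 0.0529 in FBMet and 0.314 in FB, and *Cnpy1* averaged 92.6 in HBMet, 73.4 in HB, 0.179 in FBMet and 0.195 in FB.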

How the data were processed

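RNA of mouse host tissue was measured in 14 brain libraries. The authors deposited RPKM per gene, mapped to mm10 per the submitters' processing notes. No aligner or counter is given in the sources used here. RPKM was rescaled to a sum of 1000000 per library, and reads, used for depth and voom, were recovered from the RPKM steps (100% whole within 0.02). Genes of at least 1 in at least 3 libraries were tested (15777). Log2(value + 1) was tested with limma 3.58.1 (R 4.3.3, trend and robust) in 1 fit of 14 libraries without a block, two-sided, with Benjamini-Hochberg adjustment over all genes. Genes with adjusted p under 0.05 were called. Folds are 2 to the power of the fitted log2 difference. Tests were tried on simulated data. The 10 genes, the lists and the tests were chosen with earlier results of these data known. Named are all 10 genes, up to 4 called genes with the largest change per list, and the 5 genes most like *Pcp2* and *Gabra6*, besides the genes of small counts and others named after their values were seen. In mouse genes, same-numbered HBMet and FBMet libraries correlated in their deviations from group means (0.238 to 0.437, against at most -0.0397 between other numbers). They were taken as pairs in an alternative block. Deviations cancel within a group, so positive values at same numbers draw the others down. In HB and FB same numbers gave -0.0577 to 0.365 and other numbers -0.285 to 0.284. The labels do not state a shared animal. Alternatives changed the pseudocount (0.1 or 5), filter, scaling, model, block and libraries. Mouse sequences and positions were not used here. A few genes that meet the naming rule are left out of the text.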

Additional observations from a re-analysis of the deposited data

Results flagged for a closer look

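In tumour-free forebrain, *Pcp2* in FB replicate 3 stood apart from the other FB libraries, at 0.373 rescaled RPKM against 0.125 to 0.145. The value rests on 3 reads against 1 in each of the other FB libraries. It was the only such library among 20 groups of 4 tested, and chance flags about 1 in 20.

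Mouse RNA of subcutaneous tumours, tissue with no cerebellum, also held reads of these genes, mostly in replicate 1 of the 4 libraries. *Pcp2* and *Cbln1* had no reads in replicates 3 and 4, and *Gabra6* and *Neurod1* had none in replicates 2, 3 and 4. The genes named here were at 0 in the monolayer cultures. Those cultures held only 7297 to 16524 mouse reads, against 2446513 to 3982107 in the subcutaneous libraries, so their zeros say little. The highest subcutaneous library, replicate 1 for all but *Pvalb*, had 2.75 rescaled RPKM of *Pcp2*, 3.79 of *Cbln1*, 3.93 of *Cbln3*, 1.66 of *Gabra6*, 3.66 of *Car8*, 2.15 of *Zic1* and 0.844 of *Neurod1*. These values rest on 5 to 49 reads. *Pvalb*, which skeletal muscle also expresses, had 77.9, 126, 54.3 and 47.9 in the 4 subcutaneous libraries, on 123 to 403 reads.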

How the results depend on the processing

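The higher hindbrain level of all 10 genes was called in every alternative run for HB over FB and HBMet over FBMet. *Pcp2*, *Cbln3*, *Gabra6* and *En2* met the filter only through hindbrain libraries. For these 4 genes such regional calls, here and with a block below, are a description and no support. Over single-gene results and alternatives, 1284 kept their side of the threshold, 16 gained and 16 lost a call, and no called difference changed sign. Among differences that were not called, the sign changed for *Zic1* in FBMet over FB (-0.14 to 0.27) and for *Pcp2* (-0.09 to 0.57) and *Car8* (-0.14 to 0.30) in the regional difference. Of the 10 genes, 1 was called in FBMet over FB with a pseudocount of 5, without the filter, with scaling to general neuron genes, with voom and with the replicate number as a block (*Pvalb* lost, adjusted p = 0.0773). The tests of the difference between regions called 1 with median-of-ratios scaling and with quantile normalization. Over all genes, HBMet over HB called 294 with a stricter filter, and the regional difference called 30 without the filter, 126 with quantile normalization, 30 with general neuron genes and 173 with voom, against 512 and 72. Leaving out 1 library gave 1 to 3 of the 10 genes and 2353 (without FBMet replicate 2) to 4996 of all genes in FBMet over FB, 0 to 4 and 291 to 804 in HBMet over HB, 0 to 4 and 12 to 343 for the regional difference, 10 and 7634 to 8245 in HB over FB, and 10 and 6650 to 7794 in HBMet over FBMet. Scaling to general neuron genes moved the median of all genes from -0.03 to 0.20 in FBMet over FB, where 4896 genes were then higher and 309 lower (2265 and 2528 before). In HB over FB, 4037 genes were higher and 4221 lower with median-of-ratios scaling (5133 and 3194 before), and in HBMet over FBMet 3534 and 3714 (4838 and 2805 before). Another block joined same-numbered HBMet and FBMet libraries, and also same-numbered HB and FB libraries. With it all 10 genes were called in HBMet over FBMet, among 7702 (7643 without). This block, run for the regional comparisons and the regional difference, changed no call among the 10 genes. The number block changed no call among them other than that of *Pvalb*. The fit of only the groups compared gives no regional difference, and *Pcp2*, *Cbln3*, *Gabra6* and *En2* failed its filter in forebrain. Reads of these 4 genes limit what forebrain can show.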

Other observations

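Other members of the gene families gave values beside the 10 genes, looked up after those had been seen. *Zic2*, another member of the Zic family, averaged 85.1 in HBMet and 64.8 in HB. *En1* averaged 4.34 in HBMet, 4.13 in HB, 0.0294 in FBMet and 0.311 in FB. *Gabrd*, a delta subunit gene of the GABA-A receptor that pairs with the alpha-6 subunit in granule cells, averaged 42.5 in HBMet, 36.0 in HB, 43.3 in FBMet and 48.4 in FB. Among the HB libraries *Gabrd* had 53.5, 31.3, 19.6 and 39.6, with the highest value in replicate 1 and the lowest in replicate 3, the order of the summed levels of the 10 cerebellar genes. *Gabra5* averaged 14.9 in HBMet, 18.6 in HB, 20.1 in FBMet and 35.9 in FB.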
